A study of Sus scrofa with 32 samples.

Results

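The 80 protein-coding genes described here encode the proteins of the pig cytoplasmic ribosome. They were taken from the RefSeq gene table of the pig assembly Sscrofa11.1 by symbol: RPL or RPS followed by a number and at most 1 letter (A, X or L), together with RPLP0, RPLP1, RPLP2 and RPSA. They are 80 of the 19550 protein-coding genes placed on a chromosome. Of the 80, 43 encode proteins of the large subunit, 31 proteins of the small subunit and 3 the acidic stalk proteins, and 3 (RPL3L, RPL10L, RPS27L) are paralogs. The symbol RPL18 occurs at 2 places, a 600 bp entry on chromosome 1 and a gene on chromosome 6, and both were kept.

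A ribosome is built from ribosomal RNA and a fixed set of proteins, most of which are needed in equal numbers in every cell. Their genes are short, are transcribed in nearly all tissues and have compact promoters at CpG-rich starts, and for that reason they are often used as a housekeeping reference. Trimethylation of histone H3 at lysine 4 (H3K4me3) marks active gene starts, acetylation at lysine 27 (H3K27ac) marks active starts and enhancers, and trimethylation at lysine 27 (H3K27me3) marks genes held silent by Polycomb complexes. SGC-CBP30 is a small molecule that binds a bromodomain shared by CBP and p300, enzymes that write much of the cell's H3K27ac.

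The study profiled pig satellite cells, which rebuild skeletal muscle fibres, by CUT&Tag, in which an antibody directs a transposase to cut and tag the DNA around a histone mark. CBP 60 h cells had SGC-CBP30 for 60 h in differentiation, and WT 60 h cells were untreated cells of that stage. CBP 0 h cells had SGC-CBP30 for 48 h in proliferation, and WT 0 h cells were untreated proliferating cells. The labels give the dose as 5 uM/ml, a unit that cannot be read with certainty, and no vehicle control is named for WT cells. Each condition had 2 libraries for each of the 3 marks, so that 24 peak lists were used, and 8 IgG samples were not analysed here. Labels differ in places: a treatment field names proliferation for the 60 h samples too, and a cell line field (C3H) and an RPMI growth protocol stand beside the species and cell type used here. Nothing in the labels says that the 2 libraries of a condition came from separate cultures, so p-values measure the spread between libraries, which may be technical.

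The measure was the length covered by peaks, in kb, within a gene's span extended by 5 kb on either side. It holds no read count: read depth is unknown, and a longer peak is not shown to be a stronger one. Peak numbers per library ranged over 14898 to 17364 for H3K4me3, 8969 to 23437 for H3K27ac and 1338 to 19317 for H3K27me3. The total length under H3K4me3 peaks was 27.6 and 27.5 Mb in CBP 60 h and 27.4 and 26.5 Mb in WT 60 h, with 17.3 and 17.4 Mb in CBP 0 h and 21.8 and 22.1 Mb in WT 0 h. Under H3K27ac peaks it was 11.7 and 9.26 Mb in CBP 60 h and 20.2 and 18 Mb in WT 60 h, with 6.30 and 4.77 Mb in CBP 0 h and 13 and 11.6 Mb in WT 0 h. These totals moved with the conditions, and their part in each change of a gene's covered length was not tested. The label of satellite cells was checked with H3K4me3 at 9 myogenic genes: both libraries listed 9 of them in CBP 60 h and 8 in WT 60 h (VCAM1 at 0). At 0 h they listed 6 in CBP (CHRNA1, MYOD1 and VCAM1 at 0) and 7 in WT cells (CHRNA1 and VCAM1 at 0). Their summed covered length was 33.7 and 35.5 kb in CBP 60 h and 45.3 and 42.5 kb in WT 60 h. CBP 0 h had 14.4 and 14.6 kb, and WT 0 h 27.8 and 28.2 kb. In each condition 4 of 5 fibroblast genes were listed in both libraries, with summed lengths between 7.67 and 15.8 kb. The 5 endothelial genes were at 0 in every library, and CD68 alone of 5 blood-cell genes was listed. The part of other cells in the results was not tested.

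Around the ribosomal protein genes H3K4me3 was almost universal. Peaks lay in the window of 78 of the 80 members in all 8 libraries (97.5%), against 60.1% of all protein-coding genes. The exceptions were the short RPL18 entry on chromosome 1 and RPL10L, an intronless paralog used in the testis of mice, and both were without a listed base in all 8 libraries. Such coverage was not particular to the members. The share in all 8 libraries was 100% of mitochondrial ribosomal protein genes and of ribosome biogenesis genes. It was 95% of proteasome genes and 93.3% of initiation and elongation factor genes. The median member was covered over 3.23 and 3.28 kb in CBP 60 h and 3.15 and 3.02 kb in WT 60 h. The 0 h values were 2.70 and 2.71 kb in CBP and 3 and 3.24 kb in WT cells. The median over all genes was between 0.917 and 1.57 kb. Members were thus covered more than the median gene in every library, although their median span of 3943 bp was shorter than the 20650 bp of all genes.

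The strongest H3K4me3 peaks lay near the gene ends. Among peaks on the gene span, the summit of the strongest lay a median of 271 to 418 bp from the nearer end of the gene over the 8 libraries. It was within 1 kb of an end for 87.2 to 92.3% of the members. Their short spans leave little sequence farther from an end, so this share is not set against that of all genes. The gene table gives no strand, so starts and ends cannot be told apart. Ranked within each list by -log10 p, the authors' own value for each peak, the members' strongest peaks stood at a median percentile of 78.8 to 88.1, against 65.8 to 69.4 for all genes with a peak. The 62 members that share their window with another protein-coding gene had a median of 3.32 kb (mean over 8 libraries), and the 18 that have it to themselves had 2.26 kb. The longest means over 8 libraries belonged to RPS2 (9.98 kb), RPL7A (8.24 kb), RPL23A (8.15 kb) and RPL3L (8.13 kb), and the shortest among the 78 to RPL36A (1.56 kb), RPL34 (1.74 kb) and RPS23 (1.88 kb).

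**Figure D1:**
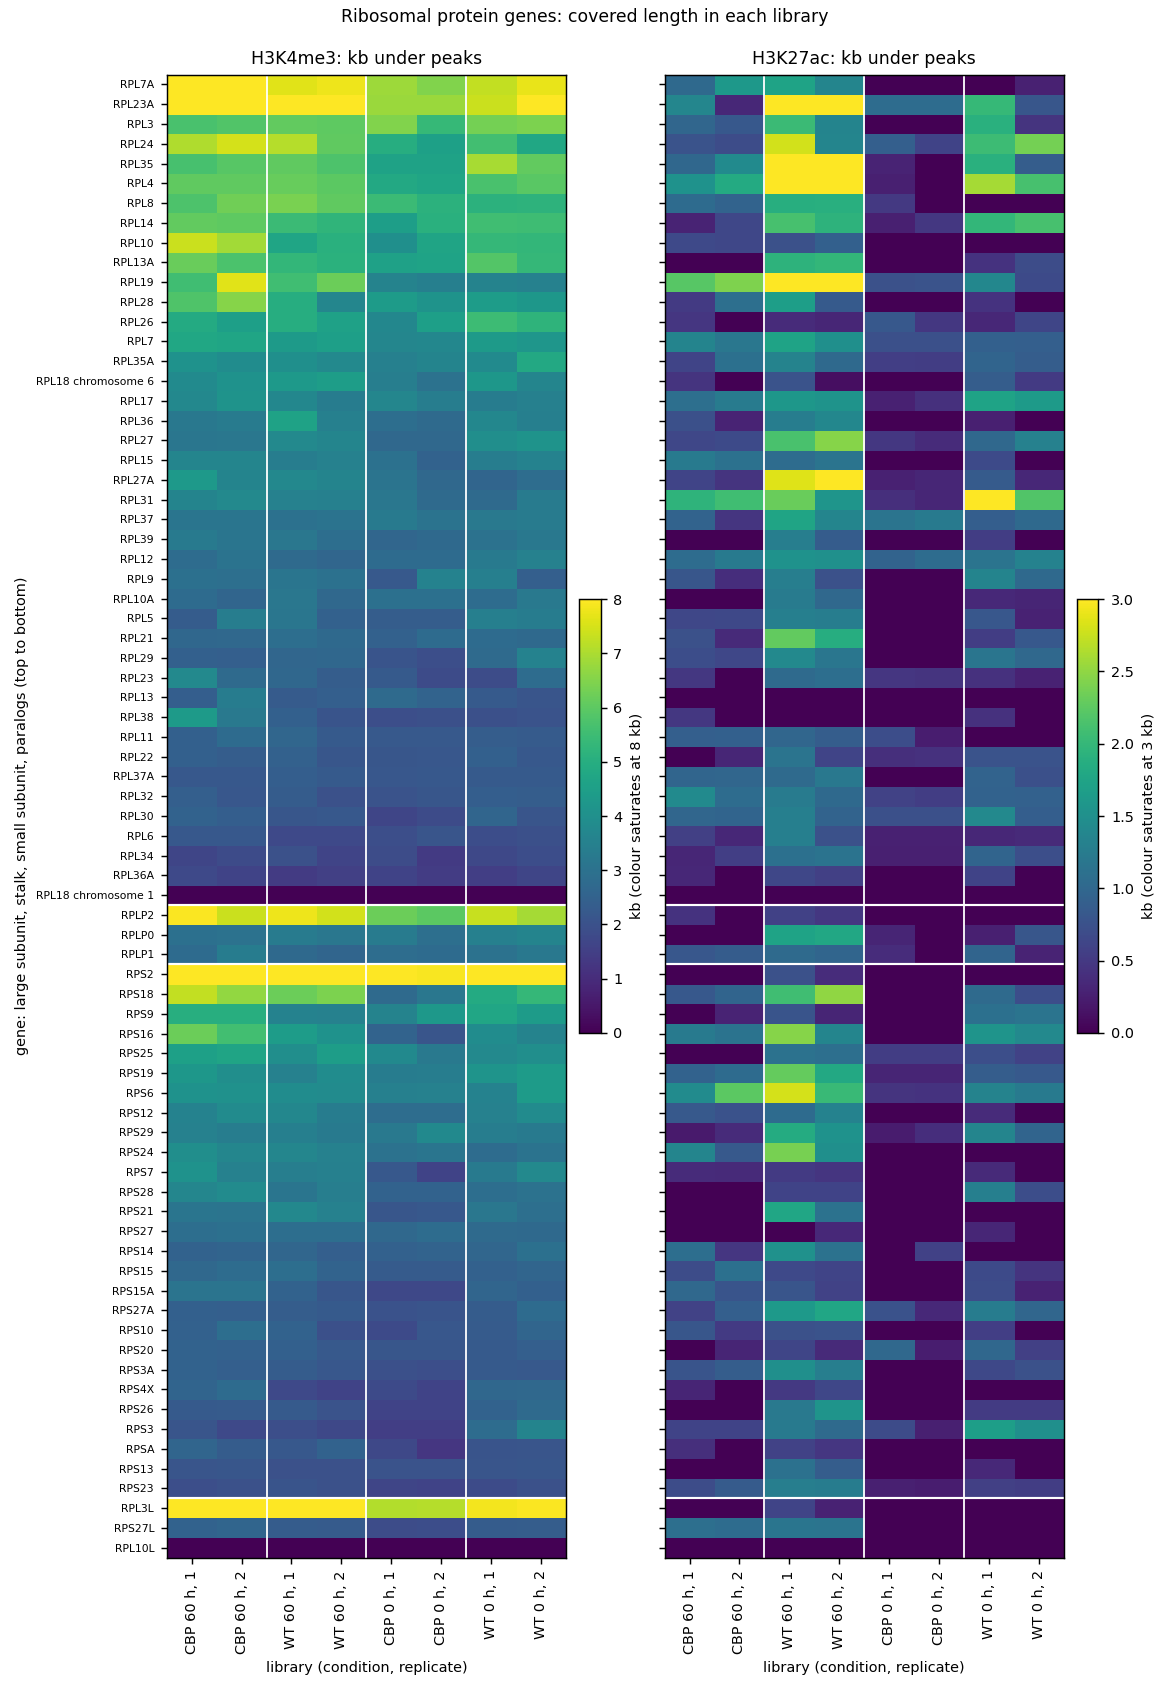
Length covered by H3K4me3 peaks (left) and H3K27ac peaks (right) within the span ± 5 kb of each of 75 ribosomal protein genes, in kb, with 1 column per library; the colours saturate at 8 kb and 3 kb. H3K4me3 was listed for all genes shown except RPL18 on chromosome 1 and RPL10L, while H3K27ac was sparsest in the CBP 0 h libraries and most complete in the WT 60 h libraries.

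Changes were tested on log2 of the covered length plus 500 bp, with limma over all genes that had at least 200 bp in at least 2 of the 8 libraries. A gene was called at an adjusted p (Benjamini-Hochberg over all genes) below 0.05. Log2 changes below are on that scale, which understates the change of short lengths. Of the 80 members 78 were among the 13394 genes of the H3K4me3 test. As an alternative, quantile scaling gave all 8 libraries of a mark the same distribution of lengths, which removes the differences in total length. It moved the median H3K4me3 change of all genes by 0.245 for CBP against WT at 0 h, by -0.033 at 60 h, by -0.242 for 60 h against 0 h in WT, by -0.525 in CBP and by -0.28 for the difference between the CBP effects. The same shifts for H3K27ac were 0.531, 0.752, -0.675, -0.435 and 0.216.

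At 0 h H3K4me3 was shorter in CBP than in WT cells at 32 of the 78 ribosomal protein genes (41.0%) and longer at 1 (1.28%), a balance that turned to 10 shorter and 14 longer with quantile scaling. Of all 13394 genes tested 41.7% were shorter and 1.19% longer, so the members' shares lay near the background, which was 13.6% and 16% with quantile scaling. The median change was -0.16 for the members and -0.19 for all genes. The count called fell to 19 without WT 0 h replicate 2. Shorter H3K4me3 was called at 16 of 31 small-subunit genes and at 14 of 42 large-subunit genes, a difference that was not tested.

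RPS3 (chr9:9612939-9630404, with no other gene in its window) encodes a small-subunit protein at the channel where mRNA enters, which also takes part in DNA repair. H3K4me3 covered 1.48 and 1.48 kb of its window in CBP 0 h, against 2.82 and 3.60 kb in WT 0 h. Both CBP values lay below both WT values, and the span carried 1 peak in each CBP 0 h library and 4 and 2 peaks in the WT 0 h libraries. The log2 change was -0.90 ± 0.12 (SE; limma, adjusted p = 0.00194). With lists cut to equal length it was -0.60 and not called (limma, adjusted p = 0.133).

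RPS18 (chr7:29638856-29642912), near the head of the small subunit, was covered over 2.78 and 3.18 kb in CBP 0 h, against 4.89 and 5.33 kb in WT 0 h, a log2 change of -0.69 (limma, adjusted p = 0.000984). RPS7 (chr3:131258709-131263285), one of the genes mutated in Diamond-Blackfan anaemia in humans, had 2.19 and 1.61 kb in CBP 0 h, against 3.30 and 3.77 kb in WT 0 h (-0.76; limma, adjusted p = 0.00479). RPS26 (chr5:21431656-21433691), another gene of that disease, had 1.60 and 1.60 kb in CBP 0 h, against 2.53 and 2.77 kb in WT 0 h (-0.58; limma, adjusted p = 0.000838). In none of these 3 genes did the CBP and WT libraries overlap, and all 3 calls were kept in each of the 8 refits without 1 library and with quantile scaling. For RPS16 (chr6:48085684-48088368), a small-subunit protein whose tail reaches the decoding site, the window held 2.55 and 2.1 kb in CBP 0 h, against 3.88 and 3.59 kb in WT 0 h (-0.59; limma, adjusted p = 0.00409). Within 1 kb of its span the lengths were 2.55 and 2.1 kb in CBP 0 h, against 2.42 and 2.32 kb in WT 0 h. There the groups overlapped and the change was -0.03 (limma, adjusted p = 0.821). The difference lay between 1 and 5 kb from the gene, where IL-15L also lies.

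At 60 h the direction was the other one: H3K4me3 was longer in CBP than in WT cells at 13 members (16.7%) and shorter at 1 (1.28%), against 10.3% longer and 7.36% shorter of all genes tested. Quantile scaling gave 12 longer and 2 shorter, against 9.17% of all genes in each direction. Members had a median change of 0.08, against 0.04 for all genes. The number of calls rested on single libraries: it fell well below 14 without any 1 of the 4 libraries at 60 h. The calls of such a refit need not be among the 14.

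RPS4X (chrX:58149302-58155179, with no other gene in its window), the X-linked copy of a small-subunit protein, had 2.59 and 2.81 kb in CBP 60 h, against 1.75 and 1.60 kb in WT 60 h. The 2 CBP libraries lay above both WT libraries, with a log2 change of 0.56 (limma, adjusted p = 0.00304). The call was kept in each of the 8 refits and with quantile scaling, but was lost with lists of equal length (adjusted p = 0.0901). RPL7A (chr1:272961421-272965636) of the large subunit had 10.3 and 11.9 kb in CBP 60 h, against 7.64 and 7.81 kb in WT 60 h (0.49; limma, adjusted p = 0.00631), and its call was kept under all of these settings. RPL10 (chrX:124927249-124929791) encodes a protein that joins the large subunit late and is needed before the subunits can pair. It had 7.37 and 6.88 kb in CBP 60 h, against 4.69 and 5.08 kb in WT 60 h (0.50; limma, adjusted p = 0.00873). Within 1 kb of its span RPL10 was covered over 4.54 and 4.54 kb in CBP 60 h, against 4.27 and 4.36 kb in WT 60 h. That is nearly the whole of the narrower window in all 4 libraries, and the change was not called (0.07; limma, adjusted p = 0.558). The added length at RPL10 lay between 1 and 5 kb from the gene, in a window that also reaches DNASE1L1.

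RPL38 (chr12:6884899-6889966), a large-subunit protein known in mice for its part in the translation of Hox mRNAs, had 4.36 and 3.23 kb in CBP 60 h, against 2.46 and 2.07 kb in WT 60 h (0.62; limma, adjusted p = 0.0226). The groups did not overlap, but the call was lost without CBP 60 h replicate 1 or either WT 60 h library, and within 1 kb of the span (0.42; limma, adjusted p = 0.198). RPL28 had 5.80 and 6.55 kb in CBP 60 h, against 4.97 and 3.68 kb in WT 60 h, and its call was lost in 7 of the 8 refits (0.48; limma, adjusted p = 0.0496). The single shorter member was RPL27, with 3.13 and 3.18 kb in CBP 60 h, against 3.78 and 3.65 kb in WT 60 h (-0.21; limma, adjusted p = 0.0173). Its call was lost without any of the 4 libraries at 60 h.

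In untreated cells the median H3K4me3 change with differentiation was near 0 for the ribosomal protein genes and positive for all genes. Between WT 60 h and WT 0 h, 8 members were longer (10.3%) and 7 shorter (8.97%), against 42.2% longer and 5.85% shorter of all genes tested. The median change was -0.00 for the members and 0.18 for all genes, and 78.8% of all genes tested lay above the members' median. Quantile scaling, which takes the general gain out, gave 1 longer and 45 shorter members, against 18.1% longer and 27% shorter of all genes. Leaving out WT 60 h replicate 1 left 7 calls, 2 longer and 5 shorter, and leaving out WT 0 h replicate 1 left 12, 4 longer and 8 shorter. Among the 16 measured members that have their window to themselves none was longer and 2 were shorter.

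These 2 were RPS3 and RPS4X. RPS3 had 1.91 and 1.73 kb in WT 60 h, against 2.82 and 3.60 kb in WT 0 h (-0.67; limma, adjusted p = 0.00459; not called with lists of equal length, adjusted p = 0.291). RPS4X had 1.75 and 1.60 kb in WT 60 h, against 2.67 and 2.70 kb in WT 0 h (-0.55; limma, adjusted p = 0.00102). This call was kept in all 8 refits and under quantile scaling, equal lists and the narrower window. RPL12 (chr1:267961398-267964881), at the base of the ribosomal stalk, had 2.77 and 2.64 kb in WT 60 h, against 3.31 and 3.51 kb in WT 0 h (-0.29; limma, adjusted p = 0.00477), also kept under all of these. For these 3 genes each WT 60 h value lay below each WT 0 h value. On the other side RPL19 (chr12:23029377-23034337), a large-subunit protein that reaches across to the small subunit, had 5.55 and 6.20 kb in WT 60 h, against 3.57 and 3.51 kb in WT 0 h (0.66; limma, adjusted p = 0.00814). The groups did not overlap, and the call was lost without WT 60 h replicate 2 (adjusted p = 0.0514). RPL24 had 7.12 and 6.05 kb in WT 60 h, against 5.58 and 4.77 kb in WT 0 h (0.32; limma, adjusted p = 0.0379), a call lost in 6 of the 8 refits. RPL27A had 3.72 and 3.61 kb in WT 60 h, against 2.61 and 2.86 kb in WT 0 h (0.37; limma, adjusted p = 0.0219). Its call was lost without WT 0 h replicate 1 or either WT 60 h library. Both were apart between the times, and neither was called with quantile scaling. RPS9, with 3.56 and 3.53 kb in WT 60 h, against 4.73 and 4.39 kb in WT 0 h (-0.32; limma, adjusted p = 0.0156), lost its call without the same 3 libraries. The window of RPL19 also reaches CACNB1, which encodes a subunit of the calcium channel of muscle.

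In CBP cells H3K4me3 was longer at 60 h than at 0 h at 48 members (61.5%) and shorter at 0, whereas with quantile scaling 4 members were longer and 47 shorter. The background over all genes tested was 80.3% longer and 1.26% shorter, or 21.8% and 34.9% with quantile scaling. By limma 51 of 78 members differed at an unadjusted p below 0.05, against 11104 of all 13394 genes tested. Members had a median change of 0.27, against 0.44 for all genes. RPS16 led the members with 6.21 and 5.57 kb in CBP 60 h, against 2.55 and 2.1 kb in CBP 0 h (1.18; limma, adjusted p = 9.11e-05). Within 1 kb of its span it had 2.96 and 2.86 kb in CBP 60 h, against 2.55 and 2.1 kb in CBP 0 h, a change of 0.28 (limma, adjusted p = 0.016). RPS18 had 7.26 and 6.70 kb in CBP 60 h, against 2.78 and 3.18 kb in CBP 0 h (1.11; limma, adjusted p = 4.88e-05). RPS7 had 4.08 and 3.52 kb in CBP 60 h, against 2.19 and 1.61 kb in CBP 0 h (0.85; limma, adjusted p = 0.00109). In all 3 the groups were apart, and all 3 were also longer with quantile scaling. RPL19 had 5.55 and 7.63 kb in CBP 60 h, against 3.57 and 3.46 kb in CBP 0 h (0.81; limma, adjusted p = 0.00166). RPL38 had 4.36 and 3.23 kb in CBP 60 h, against 1.93 and 1.95 kb in CBP 0 h (0.80; limma, adjusted p = 0.00155). Under quantile scaling the changes of RPL19 and RPL38 stayed positive but were not called (adjusted p = 0.145 and 0.0527).

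**Figure D2:**
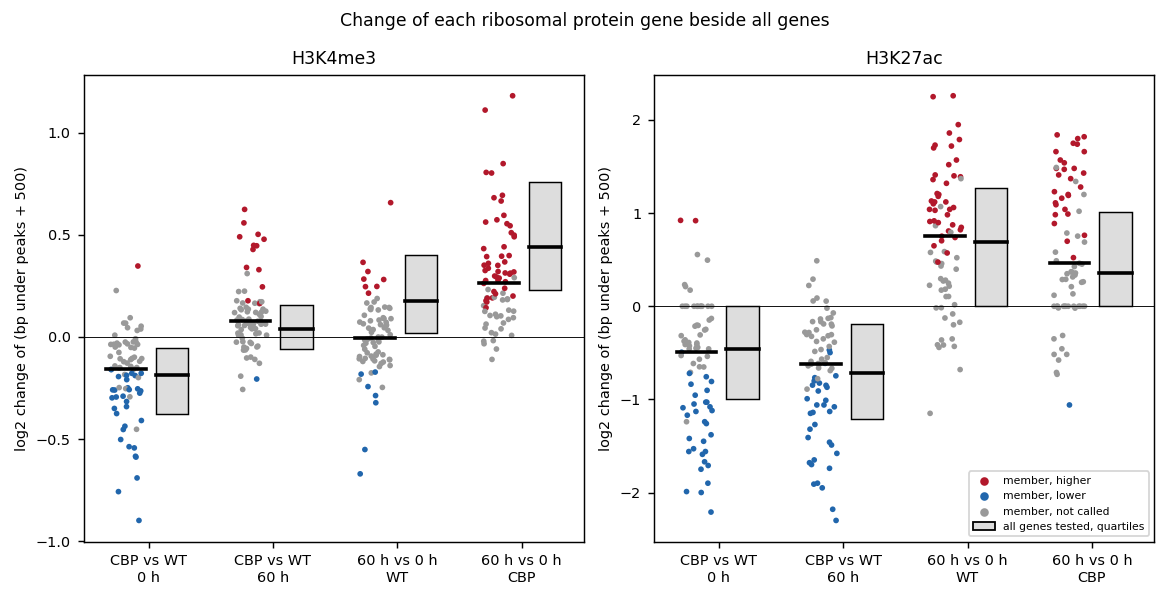
Log2 change of covered length for each measured ribosomal protein gene (points) in 4 comparisons, for H3K4me3 and H3K27ac, beside the quartiles over all genes tested (boxes). The H3K4me3 medians of the members were -0.16 and 0.08 for CBP against WT at 0 h and 60 h, and -0.00 and 0.27 for 60 h against 0 h in WT and CBP. With quantile scaling more members had longer than shorter H3K4me3 for CBP against WT at 0 h, and more had shorter than longer H3K4me3 for both changes in time.

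The 2 comparisons of CBP with WT differed between the times at 31 members (39.7%), all with the CBP effect more positive at 60 h, against 37.9% of all genes in that direction and 3.56% in the other. With quantile scaling 8 members were called in this direction and 5 in the other, against 11% and 12.2% of all genes. RPS4X showed the difference most clearly: it was long in CBP 60 h (2.59 and 2.81 kb), short in WT 60 h (1.75 and 1.60 kb), short in CBP 0 h (1.79 and 1.60 kb) and long in WT 0 h (2.67 and 2.70 kb). The CBP effect on it was 0.56 at 60 h and -0.54 at 0 h, and their difference of 1.09 (limma, adjusted p = 0.000766) was called in all 8 refits and under quantile scaling, equal lists and the narrower window. The differences at RPS16 (1.02; limma, adjusted p = 0.00283), RPS18 (0.82; adjusted p = 0.00251), RPS7 (0.88; adjusted p = 0.0112) and RPS3 (0.96; adjusted p = 0.00647) were likewise called in all 8 refits and with quantile scaling. Within 1 kb of the span that at RPS16 was 0.22 and not called (adjusted p = 0.153), and with equal lists those at RPS18 and RPS3 were not called (adjusted p = 0.0881 and 0.218).

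**Figure D3:**
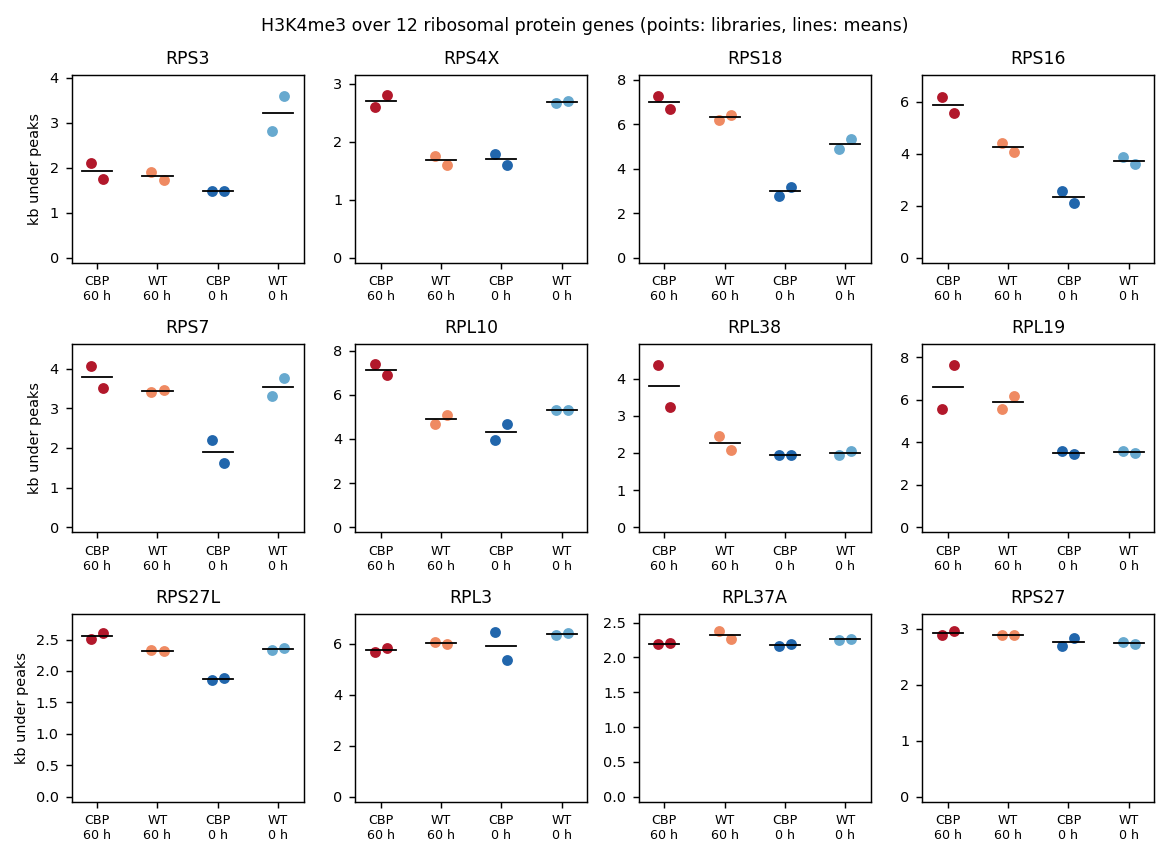
Length covered by H3K4me3 peaks in each of the 8 libraries, in kb, for 12 ribosomal protein genes; each point is a library and the bar is the mean of 2. RPS4X was at 1.60 to 1.79 kb in the CBP 0 h and WT 60 h libraries and at 2.59 to 2.81 kb in the CBP 60 h and WT 0 h libraries, while RPS27 stayed within 2.70 to 2.96 kb in all 8.

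RPS27, RPL37A, RPL3, RPL5, RPL11 and RPS6 passed the threshold for H3K4me3 in none of the 5 comparisons (limma). RPS27, a zinc-finger protein of the small subunit, lay between 2.70 and 2.96 kb in all 8 libraries. RPL37A lay between 2.17 and 2.38 kb in the 8 libraries. RPL5 and RPL11 form a particle with the 5S rRNA that binds MDM2 and stabilises p53 when ribosome assembly fails. RPL5 had 2.33 and 3.39 kb in CBP 60 h and 3.14 and 2.48 kb in WT 60 h. At 0 h the values were 2.37 and 2.35 kb in CBP and 3.46 and 3.36 kb in WT cells. Its CBP libraries lay below its WT libraries at 0 h (-0.45; limma, adjusted p = 0.0613), and at 60 h its CBP and WT libraries overlapped. RPL11 had 2.45 and 2.80 kb in CBP 60 h and 2.63 and 2.27 kb in WT 60 h. CBP 0 h had 2.22 and 2.23 kb, and WT 0 h 2.36 and 2.30 kb. RPS6, the target of the S6 kinases, had 4.09 and 4.05 kb in CBP 60 h and 3.89 and 3.85 kb in WT 60 h. The 0 h values were 3.48 and 3.53 kb in CBP and 3.55 and 4.38 kb in WT cells. For RPL11 and RPS6 the lowest pair was CBP 0 h. RPS19, the gene most often mutated in Diamond-Blackfan anaemia in humans, had 4.22 and 3.94 kb in CBP 60 h and 3.52 and 3.88 kb in WT 60 h. At 0 h the values were 3.36 and 3.40 kb in CBP and 4.13 and 4.39 kb in WT cells. At 0 h the CBP libraries of RPS19 lay below the WT libraries (-0.29; limma, adjusted p = 0.0096; 0.0533 without WT 0 h replicate 2), and the difference between the CBP effects was 0.42 (adjusted p = 0.0106). RPS27A, made as a fusion with ubiquitin, ranged over 2.03 to 2.79 kb in the 8 libraries. RPL39, a small protein in the wall of the exit tunnel, ranged over 2.65 to 3.26 kb. For both the CBP 0 h pair was the lowest.

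The stalk proteins RPLP0, RPLP1 and RPLP2, which recruit the elongation factors to the ribosome, gave 1 call in CBP against WT at 0 h. This was RPLP2, which had 6.21 and 5.98 kb in CBP 0 h, against 7.32 and 6.93 kb in WT 0 h (-0.21; limma, adjusted p = 0.0205), a change that was 0.08 and not called under quantile scaling. RPLP0 ranged over 2.93 to 3.61 kb and RPLP1 over 2.62 to 3.36 kb, and neither was called in any comparison. RPSA, the small-subunit protein also known as the laminin receptor, had 1.74 and 1.27 kb in CBP 0 h, against 2.07 and 2.1 kb in WT 0 h (-0.38; limma, adjusted p = 0.0469). Its call was lost in 7 of the 8 refits.

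Of the paralogs, RPL3L replaces RPL3 in the ribosomes of striated muscle, and RPS27L is a paralog of RPS27 that p53 induces. RPL3 (chr5:8922697-8929768) had 5.69 and 5.82 kb of H3K4me3 in CBP 60 h and 6.07 and 6 kb in WT 60 h. CBP 0 h had 6.47 and 5.37 kb, and WT 0 h 6.33 and 6.43 kb. The 2 CBP 0 h values of RPL3 lay on either side of the values of all other libraries. The window of RPL3L (chr3:40004907-40016702) was covered over 9.35 and 8.30 kb in CBP 60 h and 8.70 and 8.72 kb in WT 60 h. The 0 h values were 7.08 and 7.11 kb in CBP and 7.85 and 7.94 kb in WT cells. That window also holds parts of RPS2, RNF151, NDUFB10 and MSRB1. RPS2 and RPL3L are the only members within 5 kb of each other. Within 1 kb of its span RPL3L had 4.72 and 3.90 kb in CBP 60 h and 4.34 and 4.45 kb in WT 60 h. At 0 h the values were 3.45 and 3.5 kb in CBP and 3.67 and 3.80 kb in WT cells. Both 60 h conditions lay above both 0 h conditions in that narrower window. NDUFB10 and MSRB1 also reach into it, and H3K4me3 peaks lay over parts of both, so these lengths are not of RPL3L alone. In CBP the change in the 5 kb window was 0.29 (limma, adjusted p = 0.0029), which turned to -0.31 with quantile scaling. H3K27ac was listed in the 5 kb window of RPL3L in WT 60 h alone, with 0.614 and 0.292 kb, against 0 in the other 6 libraries. The peak found in both WT 60 h libraries lay over RPS2 and RNF151 at the edge of that window, and in the 1 kb window WT 60 h had 0.32 and 0 kb. RPL3L entered the H3K27ac test only through the WT 60 h libraries, so no p-value is given.

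**Figure D4:**
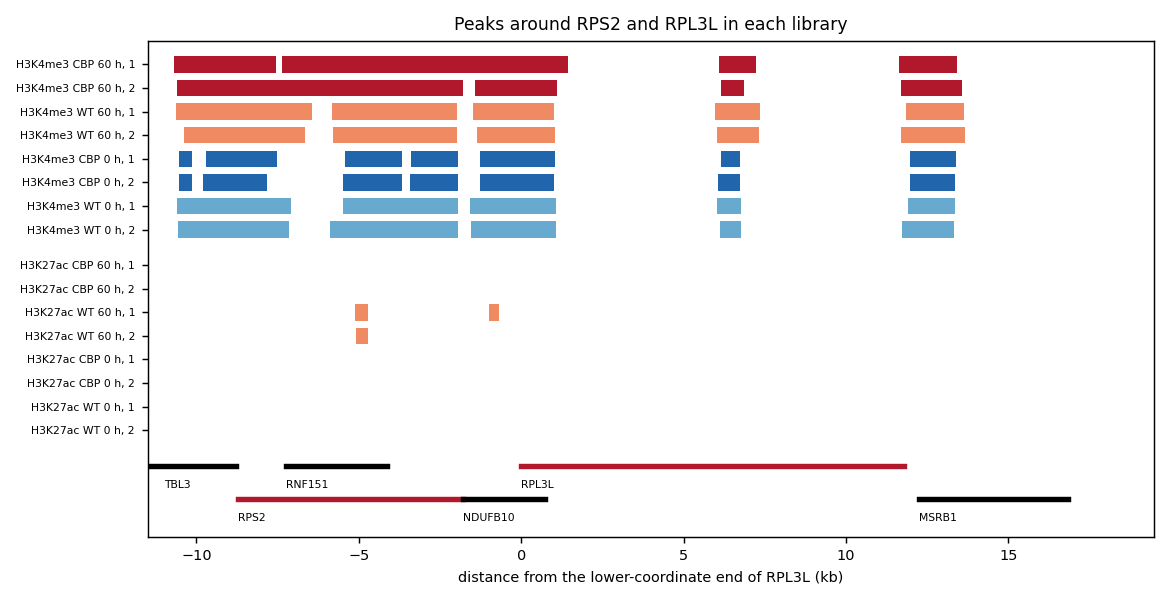
Peaks of H3K4me3 and H3K27ac around RPS2 and RPL3L in each library, drawn by distance in kb from the lower-coordinate end of RPL3L, with the genes below. H3K4me3 peaks covered the lower-coordinate end of RPL3L in all 8 libraries and its other end in 4 (both CBP 60 h libraries, WT 60 h replicate 2 and WT 0 h replicate 2), while H3K27ac peaks were listed in the 2 WT 60 h libraries and in none of the other 6.

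RPS27L (chr1:108881330-108886334) has its window to itself. Its H3K4me3 covered 2.51 and 2.61 kb in CBP 60 h and 2.33 and 2.31 kb in WT 60 h. CBP 0 h had 1.85 and 1.89 kb, and WT 0 h 2.33 and 2.36 kb. CBP 0 h was the shortest condition without overlap, at -0.26 against WT 0 h (limma, adjusted p = 0.00372) and with CBP 60 h at 0.37 against it (adjusted p = 0.000311). Quantile scaling left -0.03 and -0.09, neither of them called. Its H3K27ac was present at 60 h and absent at 0 h: 1.1 and 1.06 kb in CBP 60 h, 1.17 and 1.15 kb in WT 60 h, and 0 in all 4 libraries at 0 h. RPS27L entered the H3K27ac test only through the 60 h libraries. A gain with time was thus built in, and no p-value is given for it.

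H3K27ac at the ribosomal protein genes was less complete and varied more. It was listed for 59 and 55 of the 80 members in CBP 60 h, 75 and 75 in WT 60 h, 34 and 30 in CBP 0 h, and 61 and 51 in WT 0 h. All 8 libraries listed 22 members (27.5%), against 11.2% of all genes, and RPL18 on chromosome 1, RPL10L and RPL13 were listed in none. The summed length over the members was 50.1 and 47.7 kb in CBP 60 h and 114 and 95.9 kb in WT 60 h. The 0 h values were 18.5 and 15.1 kb in CBP and 61.4 and 45.5 kb in WT cells. Among the 77 members with a listed base, WT 60 h had the longest mean at 59, and CBP 0 h alone had the shortest at 44, not counting ties. Replicates differed by a median factor of 1.08 to 1.29, against 1.04 to 1.06 for H3K4me3. For members with an H3K27ac peak on the gene span itself (21 to 70 a library), the summit of the strongest lay within 1 kb of an end in 87.2 to 95.2%, again on short spans.

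The rank of the members' H3K27ac peaks within each list differed from that of other genes in opposite ways. The median percentile of their strongest peak was 86.7 and 78.1 in CBP 60 h, against 67.8 and 66.3 for all listed genes, and 86.8 and 83.1 in WT 60 h, against 70.8 and 70.2. In CBP 0 h it was 44.2 and 41.3, against 62.3 and 62.0 for all listed genes, and in WT 0 h 63.6 and 52.2, against 64.9 and 63.4. Within the lists, then, the members stood above the median listed gene in all 4 libraries at 60 h and below it in all 4 at 0 h. The lists differ in length, and no test was made of ranks between them. The CBP 0 h ranks rest on 24 and 21 members, and members have shorter spans in which to find a strongest peak. In CBP 0 h that peak lay a median of 183 and 193 bp from a gene end, against 5365 and 6954 bp for all listed genes.

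Of the 80 members 77 were among the 10294 genes of the H3K27ac test. 5 members, RPL3L, RPS2 and RPS21 among them, reached 200 bp in the WT 60 h libraries alone, so for these a difference from WT 60 h was built in. All 5 are among the members counted below as called for CBP against WT at 60 h, for 60 h against 0 h in WT and for the difference between the CBP effects, and none is given a p-value. Others outside the 5, RPSA, RPLP2, RPS4X and RPL39 among them, reached 200 bp in WT 60 h and in only 1 other library. They too would not have passed the filter without WT 60 h, and any calls of theirs are not set apart in the counts below. The same holds for members that passed through 60 h libraries alone, RPS27L and RPS24 among them. It also holds for those that passed through WT libraries alone, such as RPL13A and RPS26. RPL8, RPS14, RPL7A and RPL15 reached 200 bp in only 1 library at 0 h, so they too needed the 60 h libraries to pass. In 48 of the 77 members, and in 6942 of all 10294 genes tested, both libraries of at least 1 condition held no base, and for those the size of a log2 change depends on the 500 bp added and is no bound.

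At 0 h H3K27ac was shorter in CBP than in WT cells at 31 members (40.3%) and longer at 2 (2.6%), against 32.6% and 1.4% of all genes tested. The median change was -0.49 for the members and -0.46 for all genes. Quantile scaling gave 13 shorter and 6 longer, against 15.5% and 8.91% of all genes. The 33 calls fell to 20 without CBP 0 h replicate 2 and to 19 without WT 0 h replicate 1. Counted by listing alone, 19 members (23.8%) were listed in both WT 0 h libraries and in neither CBP 0 h library, against 11.8% of all genes; 2 members (2.5%) showed the reverse, against 0.818% of all genes.

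RPL4 (chr1:164476269-164481765) and RPL31 (chr3:53289993-53295387) encode large-subunit proteins at the tunnel through which the new protein leaves. RPL4 had 0.258 and 0 kb in CBP 0 h, against 2.59 and 2.13 kb in WT 0 h (-2.21; limma, adjusted p = 0.00203). RPL31 had 0.406 and 0.325 kb in CBP 0 h, against 3.38 and 2.18 kb in WT 0 h (-1.90; limma, adjusted p = 0.00341). In both genes the groups lay far apart, and both calls were kept in all 8 refits, with equal lists and with quantile scaling. RPS16 was listed at 0 in both CBP 0 h libraries and had 1.55 and 1.41 kb in WT 0 h (limma, adjusted p = 0.00268). Within 1 kb of the span WT 0 h had 0.307 and 0.318 kb and the call was lost (adjusted p = 0.193). RPL9 was at 0 in both CBP 0 h libraries, against 1.35 and 1.02 kb in WT 0 h (limma, adjusted p = 0.00623; not called with equal lists, adjusted p = 0.439). One of the longer members was RPL11, with 0.708 and 0.243 kb in CBP 0 h and 0 in both WT 0 h libraries (limma, adjusted p = 0.0335). This call was lost in 6 of the 8 refits, and no peak was left in either CBP 0 h library when -log10 q of at least 5 was asked for.

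At 60 h H3K27ac was shorter in CBP than in WT cells at 35 members (45.5%) and longer at 0, but shorter at 8 and longer at 10 with quantile scaling. Of all genes tested 45.8% were shorter and 3.03% longer, or 13.4% and 11.6% with quantile scaling. Members had a median change of -0.62, against -0.72 for all genes. The calls fell to 13 when WT 60 h replicate 1 was left out and to 21 when WT 60 h replicate 2 was. By listing alone, 13 members (16.2%) were in both WT 60 h libraries and in neither CBP 60 h library, against 11.6% of all genes, and 0 showed the reverse, against 1.08%.

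RPL13A (chr6:54551772-54568752), a large-subunit protein that in human cells can leave the ribosome to repress inflammatory mRNAs, was at 0 in both CBP 60 h libraries, against 1.94 and 1.99 kb in WT 60 h. RPS26 was at 0 in both CBP 60 h libraries, against 1.21 and 1.55 kb in WT 60 h. RPL13A and RPS26 had no base in any CBP library and entered the test through WT libraries alone. A difference between CBP and WT cells was thus built in, and no p-value is given for them. RPLP0 (chr14:40219196-40223943), the stalk base protein and a common reference gene in expression assays, was at 0 in both CBP 60 h libraries, against 1.74 and 1.80 kb in WT 60 h (limma, adjusted p = 0.00463). Its only CBP library with a listed base was CBP 0 h replicate 1 (0.312 kb). The call at RPLP0 held in all 8 refits, with equal lists and with quantile scaling. RPS21 (chr17:61763606-61764823) was listed in WT 60 h alone, with 1.78 and 1.13 kb, and is 1 of the 5 members that reached 200 bp in those libraries alone. RPL23A, at the mouth of the exit tunnel, had 1.38 and 0.337 kb in CBP 60 h, against 4.29 and 4.07 kb in WT 60 h (-1.90; limma, adjusted p = 0.0234). The groups did not overlap, yet the call was lost without CBP 60 h replicate 2 or either WT 60 h library.

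In WT cells 40 members had longer H3K27ac at 60 h than at 0 h (51.9%) and 0 had shorter, but 9 had longer and 10 shorter with quantile scaling. Of all genes tested 46.8% were longer and 10.6% shorter, or 20.7% and 20.9% with quantile scaling. The median change was 0.75 for the members and 0.69 for all genes. The calls fell to 22 when WT 60 h replicate 1 was left out and to 26 when WT 60 h replicate 2 was. By listing alone, 15 members (18.8%) were in both WT 60 h libraries and in neither WT 0 h library, against 12.1% of all genes, and 0 showed the reverse, against 3.34%.

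RPS24 (chr14:80473867-80480818), another gene of Diamond-Blackfan anaemia in humans, had 2.39 and 1.49 kb in WT 60 h and was at 0 in both WT 0 h libraries. It was at 0 in both CBP 0 h libraries too and entered the test only through the 60 h libraries. A gain was thus built in, and no p-value is given for it. RPL8 of the large subunit had 1.88 and 1.89 kb in WT 60 h and 0 in both WT 0 h libraries (limma, adjusted p = 0.00287). The call at RPL8 was kept in all 8 refits, with equal lists and with quantile scaling. RPS14, whose loss underlies the anaemia of the human 5q- syndrome, had 1.52 and 1.13 kb in WT 60 h and 0 in both WT 0 h libraries (adjusted p = 0.0151), a call lost without any of these 4 libraries. RPL19 had the longest mean H3K27ac of all members (2.19 kb over 8 libraries), with 5.08 and 4.24 kb in WT 60 h, against 1.39 and 0.675 kb in WT 0 h (1.79; limma, adjusted p = 0.00235). The groups of RPL19 did not overlap, and its call held in all 8 refits and with quantile scaling.

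In CBP cells 29 members had longer H3K27ac at 60 h than at 0 h (37.7%) and 1 had shorter (1.3%), against 30.7% and 8% of all genes tested. Members had a median change of 0.46, against 0.36 for all genes, and quantile scaling gave 23 longer and 7 shorter, against 24.1% and 17% of all genes. By listing alone, 23 members (28.7%) were in both CBP 60 h libraries and in neither CBP 0 h library, against 11.5% of all genes, and 1 showed the reverse (1.25%), against 3.38%. RPL7A had 1.03 and 1.60 kb in CBP 60 h and 0 in both CBP 0 h libraries (limma, adjusted p = 0.00452). RPL4 had 1.53 and 1.83 kb in CBP 60 h, against 0.258 and 0 kb in CBP 0 h (1.82; limma, adjusted p = 0.00277). Both were called in all 8 refits and with quantile scaling. RPL15, another gene of Diamond-Blackfan anaemia in humans, had 1.23 and 1.12 kb in CBP 60 h and 0 in both CBP 0 h libraries (adjusted p = 0.0197; lost without any of these 4 libraries). RPS6 had 1.45 and 2.24 kb in CBP 60 h, against 0.457 and 0.444 kb in CBP 0 h (1.28; limma, adjusted p = 0.00688). RPL5 had 0.641 and 0.646 kb in CBP 60 h and 0 in both CBP 0 h libraries (adjusted p = 0.0145; lost without any of these 4). The member that went the other way was RPS25 (chr9:46237911-46242174), a small-subunit protein needed for translation from some viral internal ribosome entry sites. It was at 0 in both CBP 60 h libraries, against 0.543 and 0.543 kb in CBP 0 h (limma, adjusted p = 0.00112). The CBP 0 h peaks did not reach -log10 q of 5, and with that limit RPS25 had no base in any CBP library.

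The CBP effect on H3K27ac differed between the times at 21 members, more positive at 60 h for 10 (13%) and more negative for 11 (14.3%), against 11.5% and 18.9% of all genes tested. Quantile scaling gave 14 and 6, against 16.1% and 11.9% of all genes. The count fell to 13 without CBP 0 h replicate 1, to 12 when WT 60 h replicate 1 was left out and to 6 when WT 60 h replicate 2 was. RPL31 stood first among the positive ones: 1.95 and 2.08 kb in CBP 60 h and 2.32 and 1.57 kb in WT 60 h. At 0 h the values were 0.406 and 0.325 kb in CBP and 3.38 and 2.18 kb in WT cells. Its CBP and WT values overlapped at 60 h and not at 0 h, and the difference was 1.95 (limma, adjusted p = 0.00982; 0.0515 without WT 60 h replicate 2). RPS25 was among the negative ones: 0 in both CBP 60 h libraries, 1.13 and 1.09 kb in WT 60 h, 0.543 and 0.543 kb in CBP 0 h, and 0.720 and 0.595 kb in WT 0 h (limma, adjusted p = 0.00104). RPL37A had 0.984 and 0.989 kb in CBP 60 h, 1.04 and 1.2 kb in WT 60 h, 0 in both CBP 0 h libraries, and 0.951 and 0.738 kb in WT 0 h. CBP and WT were apart at both times, and farther at 0 h (limma, adjusted p = 0.00356). The call at RPS25 was kept in all 8 refits. The changes in time within CBP and within WT, and the CBP effects at each time, share their libraries and are set side by side here without a test between them.

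**Figure D5:**
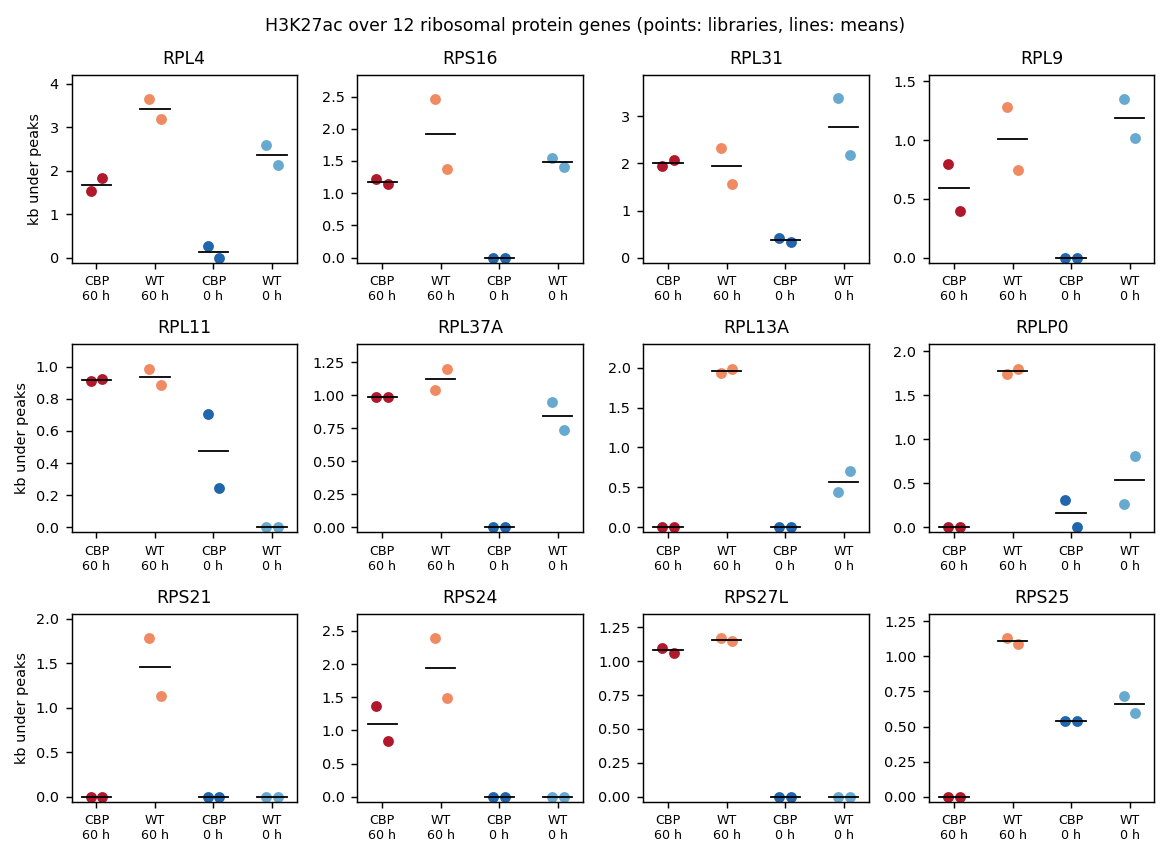
Length covered by H3K27ac peaks in each of the 8 libraries, in kb, for 12 ribosomal protein genes; each point is a library and the bar is the mean of 2. RPL4 was at 0 and 0.258 kb in CBP 0 h, against 2.13 and 2.59 kb in WT 0 h, RPL13A and RPLP0 were at 0 in both CBP 60 h libraries, and RPS27L was at 0 in all 4 libraries at 0 h.

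H3K27me3 was nearly absent from the ribosomal protein genes. No base was listed in any of the 8 libraries for 74 of the 80 (92.5%), whereas 25.9% of all genes had some in at least 1 library. The share without a base was similar in like lists: 95.9% of mitochondrial ribosomal protein genes and 90% of initiation and elongation factor genes. It was 90.7% of ribosome biogenesis genes and 92.5% of proteasome genes. No base was listed within 1 kb of the span for RPL38, RPL22, RPS28 or RPS7, whereas 21.7% of all genes had some there in at least 1 library. RPL38 had 0.896 and 0.655 kb in CBP 60 h, 0 in both WT 60 h libraries, and 2.98 and 2.58 kb in CBP 0 h with 0 in both WT 0 h libraries. CBP and WT did not overlap at either time, and within CBP the 60 h values lay below the 0 h values. RPL22 (chr6:67092892-67102086) had 2.77 and 0.192 kb in CBP 60 h, 0.375 and 0 kb in WT 60 h, 2.21 and 1.80 kb in CBP 0 h and 0 in both WT 0 h libraries; its window reaches RNF207. RPS28 and RPS7 had 0.644 and 0.350 kb in WT 60 h replicate 2 and 0 in the other 7 libraries.

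Only 4 members could be tested for H3K27me3 among 4203 genes, those with 200 bp in 2 libraries. All 4, and 3090 of the 4203 genes, held no base in both libraries of at least 1 condition. RPL38 had no base in any WT library and entered the test through CBP libraries alone. For RPL38 longer H3K27me3 in CBP was thus built in, and no p-value is given for CBP against WT. RPL22 reached 200 bp in only 1 WT library. In CBP against WT at 0 h 3 of the 4 were longer, against 77.2% of all genes tested, among them RPL38, and RPL22 with an adjusted p of 0.0269 (limma). A single call was left without CBP 0 h replicate 1 or without either WT 0 h library. At 60 h RPL38 was called longer, against 12.1% of all genes. This call was lost without either CBP 60 h library, WT 60 h replicate 2 or WT 0 h replicate 1. Between WT 60 h and WT 0 h 0 of the 4 were called by limma and 0 had an unadjusted p below 0.05, against 20.9% of all genes longer and 0.619% shorter. In CBP 2 of the 4 were shorter at 60 h than at 0 h, RPL38 with an adjusted p of 0.00486 (limma), against 44.2% shorter and 6.69% longer of all genes. The count was 1 without CBP 0 h replicate 1, CBP 60 h replicate 2 or either WT 0 h library. The CBP effects differed between the times at 2 of the 4, RPL38 with an adjusted p of 0.0139 (limma), both more negative at 60 h, against 53% of all genes in that direction and 3.95% in the other. The count was 0 without WT 0 h replicate 1, where RPL38 was lost too, and 1 without CBP 0 h replicate 1, CBP 60 h replicate 2, WT 0 h replicate 2 or WT 60 h replicate 1. None of the calls at 0 h or between the times was left with quantile scaling, which moved the median change of all genes by -2.29 for CBP against WT at 0 h. The total length under H3K27me3 peaks was 10.4 and 9.42 Mb in CBP 60 h and 7.26 and 4.67 Mb in WT 60 h, with 34.7 and 25.1 Mb in CBP 0 h and 1.11 and 3.12 Mb in WT 0 h. The part of these totals in the calls was not tested.

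Other genes of protein synthesis and turnover were set beside the members. For H3K4me3 between WT 60 h and WT 0 h, 22 of 74 mitochondrial ribosomal protein genes were longer and 3 shorter (median change 0.10). The counts were 22 and 0 of 60 initiation and elongation factor genes (0.14), 18 and 1 of 43 ribosome biogenesis genes (0.13) and 12 and 2 of 38 proteasome genes (0.13). The cytoplasmic ribosomal protein genes, with 8 longer and 7 shorter of 78 and a median of -0.00, had the lowest median of these 5 lists, below the 0.18 of all genes. Contractile protein genes gave 24 longer and 0 shorter of 25 tested, with a median of 2.29. Of the 34 in that list, 7 had H3K4me3 in both WT 0 h libraries and 25 in both WT 60 h libraries. Genes not listed at 0 h could enter the test only through the 60 h libraries. For those a gain was built in, its size depends on the 500 bp added, and the same limit holds for this list in CBP. Between CBP 60 h and CBP 0 h the medians were 0.24 for mitochondrial ribosomal protein genes, 0.37 for the factors, 0.29 for biogenesis, 0.27 for the proteasome and 1.44 for contractile genes, beside 0.27 for the members and 0.44 for all genes. In CBP against WT at 0 h the 4 lists had medians of -0.18, -0.14, -0.13 and -0.17, beside -0.16 for the members. These medians are without quantile scaling, which moved the median of all genes by -0.242 in WT and -0.525 in CBP over time. Scaled medians of the lists are not given here. No test was made between the lists.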

How the data were processed

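CUT&Tag peak lists of H3K4me3, H3K27ac and H3K27me3 from 24 libraries of pig muscle satellite cells were analysed. Reads were trimmed with Trimmomatic (version not given) and peaks called with MACS2 2.1.0 on Sscrofa11.1, per the submitters' processing notes; the aligner, the options, the control and the depth were not given in the sources used here. The authors called peaks per library. Each deposited list gives a peak's position, its score, its fold enrichment over background (a ratio), -log10 of its p and q values and, for H3K4me3 and H3K27ac, the summit's offset. Positions gave the covered length, and -log10 p, -log10 q and the summit served to rank, filter or describe peaks within a list; no printed result rests on the score or the fold.

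For each of 19550 placed protein-coding genes of the RefSeq table of Sscrofa11.1, bases under peaks were counted within the span ± 5 kb (overlapping peaks merged), without regard to strand, which the table does not give. A gene entered a mark's test if 2 or more of the 8 libraries covered 200 bp or more of it. Log2(bp + 500) was fitted per mark with limma 3.58.1 in R 4.3.3 on the 4 conditions (4 residual degrees of freedom; empirical Bayes with trend and robust), with contrasts of CBP against WT at each time, 60 h against 0 h in CBP and in WT, and the change of the CBP effect between times. P-values were adjusted over all genes tested. A permutation test of 2 against 2 libraries cannot go below 0.333 (two-sided), so none was used for single genes. Named are a panel (RPL3, RPL3L, RPS27, RPS27L, RPL39, RPL10, RPL10L, RPL5, RPL11, RPS6, RPS19, RPS3, RPSA, the stalk genes, RPS27A, RPS4X, RPL23A), the 5 largest called changes per mark, comparison and direction whose groups do not overlap, and the 3 members of longest and of shortest coverage; the H3K4me3 of RPL37A was added after its values were seen. Results of some members that the rule names are not reported here. The members and the lists were chosen with earlier results of these data known. Alternatives were quantile scaling, lists cut to the shortest one's length by -log10 p, peaks with -log10 q of at least 5, 100 bp added, no filter, a window of 1 kb, either gene end within 5 kb, each library left out and a replicate block. The steps were tested on simulated data. Python 3.11.15, numpy 2.4.6, pandas 2.3.3 and matplotlib 3.10.9 were used. The groups share replicate numbers, but whether same-numbered libraries were paired is not known, and the main fit did not pair them. No promoter sequence was used here.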

Additional observations from a re-analysis of the deposited data

Results flagged for a closer look

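For these members the CBP effect (CBP against WT) differed between 60 h and 0 h by the test of that difference in limma, a log2 value of 60 h minus 0 h. For H3K4me3, 31 members differed (39.7%), all more positive at 60 h, against 37.9% of all genes tested in that direction, and with quantile scaling 8 were more positive and 5 more negative, against 11% and 12.2%. The named ones were RPS4X (1.09), RPS16 (1.02), RPS3 (0.96), RPS7 (0.879) and RPS18 (0.824). For H3K27ac, 21 members differed, 10 more positive at 60 h (13%) and 11 more negative (14.3%), against 11.5% and 18.9% of all genes tested. Of the 21, 5 had reached 200 bp in WT 60 h alone. The CBP effect was more positive at 60 h at RPL31 (1.95), RPS16 (1.5), RPS15 (1.37), RPL4 (1.36) and RPL37A (1.3), and more negative at RPL13A (-1.21), RPL27A (-1.33) and RPS25 (-1.54). Where a condition held no base in both libraries, as at RPS16, RPS15, RPL37A, RPL13A and RPS25, the size depends on the 500 bp added and is no bound. For H3K27me3, 2 of the 4 members tested differed, both more negative at 60 h, among them RPL38 (-1.37), with the same limit, against 53% of all genes tested in that direction. The cause was not tested.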

How the results depend on the processing

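Of the named calls, leaving out members that passed the filter through 1 condition only, 32 of 54 for H3K4me3, 26 of 51 for H3K27ac and 2 of 5 for H3K27me3 were kept in every refit without 1 library, and 28, 27 and 1 were kept with quantile scaling. Calls of members that passed through 1 time or 1 treatment alone are not set apart in these totals. Counts are given in the order CBP against WT at 0 h and 60 h, 60 h against 0 h in WT and CBP, and the difference between the CBP effects. Without 1 library they ranged over 19 to 31, 4 to 11, 7 to 14, 39 to 51 and 21 to 30 for H3K4me3, 19 to 31, 13 to 33, 22 to 39, 20 to 33 and 6 to 22 for H3K27ac, and 1 to 3, 0 to 1, 0 to 0, 1 to 2 and 0 to 2 for H3K27me3. Quantile scaling gave 24 (14 longer, 10 shorter) at 0 h, 46 (1 and 45) in WT, 51 (4 and 47) in CBP and 13 for the difference for H3K4me3, and 19, 18, 19 (WT over time) and 20 (difference) for H3K27ac. For H3K27me3 it gave 0 for CBP against WT at 0 h, 0 in CBP over time and 0 for the difference. A window of 1 kb gave 9 H3K4me3 calls at 60 h, 12 in WT (3 and 9) and 20 for the difference, and left no member to test for H3K27me3. Lists of equal length gave 21 H3K27ac calls at 0 h. For H3K27me3 they gave 1, 0, 1 (CBP over time) and 1 (difference), as did peaks with -log10 q of at least 5. Both settings left only 1 member to test, and it was not RPL38. Its calls over time in CBP and for the difference were not among those of the main fit. Only 4 to 24 H3K27me3 peaks in each 60 h library reached -log10 q of 5.

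Single genes changed sign as follows. With quantile scaling the H3K4me3 change in CBP over time was -0.28 at RPLP2, -0.26 at RPS27A, -0.15 at RPL23A, -0.27 at RPL39, -0.28 at RPS19, -0.31 at RPL3L and -0.0909 at RPS27L. For CBP against WT at 0 h it was 0.0764 at RPLP2, 0.0551 at RPL39 and 0.003 at RPL10, and the difference at RPL23A was -0.0086. For H3K27ac, RPS19 in CBP over time was -0.36 with equal lists and -0.69 with peaks of -log10 q of at least 5, and RPS4X at 60 h was 0.053 with quantile scaling. For H3K27me3, quantile scaling gave 0.51 for the difference at RPL38. The cause of these changes was not tested.

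Deviations of same-numbered libraries had correlations over genes of -0.0439 to 0.0272 for H3K4me3, 0.00492 to 0.0379 for H3K27ac and -0.0887 to 0.183 for H3K27me3. With 2 libraries a condition these values cannot tell whether same-numbered libraries were paired. With a replicate block the counts were 28, 12, 15, 46 and 29 for H3K4me3, 33, 34, 39, 32 and 22 for H3K27ac, and 3, 1, 0, 2 and 2 for H3K27me3. With 2 libraries a condition and no read counts, neither depth nor signal strength sets an error on a covered length.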
